A study of Mus musculus with 4 samples.

Results

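Interferon-stimulated genes and the genes of antigen presentation were followed in dorsal skin of wild-type C57BL/6J mice that had been treated on the skin surface for 3 days. The set holds 40 genes chosen by symbol, all 40 of them present among the 56953 genes of the deposited count table: 24 interferon-stimulated genes outside the Ifi200 cluster, 7 of the MHC class II pathway and 9 of the MHC class I pathway. One group of 2 libraries came from skin treated with NEDD8i at 10 µM (no more than this code name is given for the compound), and the other group of 2 libraries from skin treated with DMSO, a common solvent. Nothing in the labels says whether the replicates were separate mice, so p-values measure the spread between these libraries, which may be technical.

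Interferons bind receptors on nearly every cell, and for type I interferons the Janus kinases Jak1 and Tyk2 then activate transcription factors, Stat2 among them, which with Irf9 switch on antiviral genes through a DNA element called the ISRE. Class I molecules show peptides from inside the cell on almost all cells: the immunoproteasome cuts the peptides, Tap1 and Tap2 pump them into the endoplasmic reticulum, and tapasin loads them. Class II molecules are made mainly by professional antigen-presenting cells, in the epidermis by Langerhans cells, under the control of the activator Ciita.

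The DMSO libraries held 5955627 and 5639791 counts and the NEDD8i libraries 8856572 and 8833217 (replicate 1 before replicate 2 here and in all pairs of values), of which 52.6% to 61.7% fell on 3 ribosomal RNA genes. Levels are given in CPM, a gene's counts relative to its library's total after scaling with TMM factors. The libraries were made by a 3′ tag method, which reads the end of each transcript. A level is therefore not divided by gene length, and levels are compared here between libraries for one gene. A floor of 3 counts is 0.359 to 0.541 CPM in a library. The keratinocyte genes Krt1, Krt5, Krt10 and Krt14 summed to 4693 and 10092 CPM in DMSO and 6833 and 5717 CPM with NEDD8i, while the endothelial genes Pecam1, Cdh5, Kdr and Vwf had 2 to 10 counts per library. The fibroblast genes Col1a1, Col3a1, Dcn and Pdgfra summed to 52.6 and 3.79 against 22.8 and 46.9 CPM. Dcn made up 49.1 CPM of the sum in DMSO replicate 1, and its groups overlapped. Col1a1, Col3a1 and Pdgfra were higher in both NEDD8i libraries, as were 25.0% of all tested genes. Col1a1 was at 2.14 and 1.8 against 2.97 and 14.2 CPM, so most of its difference lay in NEDD8i replicate 2. Col3a1 had enough reads to be tested through its NEDD8i libraries alone. Pdgfra, with 2 and 0 counts against 6 and 17, was not tested. DMSO replicate 2 thus had the highest keratinocyte sum and the lowest fibroblast sum, though Krt14 was highest in NEDD8i replicate 1. S100a9, abundant in neutrophils and in stressed keratinocytes, had 3 and 31 counts against 388 and 237 (edgeR adjusted p = 0.206), while Camp, Ngp, Ltf and Ly6g, further neutrophil genes, had 0. T cell genes summed to 22.1 and 19.1 against 16.8 and 12.6 CPM. The labels describe skin of full thickness, though their extraction text speaks of cells. In bulk RNA, fewer cells of a type and less RNA per cell cannot be told apart.

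The promoter letters of the set are shown because they hold the elements named above and because the neighbouring genes Tap1 and Psmb9 share one of them. RefSeq windows on GRCm38.p6 (250 bases before and 50 bases after the start site) were found for 30 of the 40 genes. The ISRE core (GAAA, NN for any bases, GAAA), searched on both strands as all motifs here, was in 3.44% of all 32851 windows and in those of 13 of 19 interferon-stimulated genes with a window. It was in 0 of 4 class II genes and 1 of 7 class I genes, B2m. Matches may overlap each other, as the 3 in Isg15 do. The stretches of Isg15 (chr4:156200819-156200928, minus strand), Ifit1 (chr19:34640769-34640888, plus strand) and Ifit3 (chr19:34583359-34583468, plus strand) follow, with ISRE cores in capitals.
Isg15: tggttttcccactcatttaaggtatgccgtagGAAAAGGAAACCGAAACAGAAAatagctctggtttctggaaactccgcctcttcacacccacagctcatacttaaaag
Ifit1: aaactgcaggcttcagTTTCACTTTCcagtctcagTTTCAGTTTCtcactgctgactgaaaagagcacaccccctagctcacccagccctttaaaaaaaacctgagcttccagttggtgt
Ifit3: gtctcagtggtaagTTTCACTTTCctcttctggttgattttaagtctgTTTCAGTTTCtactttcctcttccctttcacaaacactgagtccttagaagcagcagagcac

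Class II promoters are known for an X box and a Y box, where the factors that recruit Ciita bind. The X box core (AG, N for any base, AAC, N, GATG) was in 0.298% of all windows and in 2 of 4 class II genes with a window, H2-Eb1 and H2-DMb1. The Y box CTGATTGG was in 4.1% of all windows, in 2 of 4 class II genes (H2-Aa and H2-Eb1) and in 4 of 7 class I genes (H2-K1, H2-D1, Tap1 and Psmb9). The last 110 bases before the start sites of H2-Aa (chr17:34287824-34287933, minus strand), H2-Eb1 (chr17:34305757-34305866, plus strand) and H2-DMb1 (chr17:34153081-34153190, plus strand) are given with both elements in capitals. These genes are shown because the classical chains and the H2-DM genes had log2 fold changes of opposite sign in the results.
H2-Aa: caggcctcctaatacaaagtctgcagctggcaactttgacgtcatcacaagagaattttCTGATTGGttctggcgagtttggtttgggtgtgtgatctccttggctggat
H2-Eb1: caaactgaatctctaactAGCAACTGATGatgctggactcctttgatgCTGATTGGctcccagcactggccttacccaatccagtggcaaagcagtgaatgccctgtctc
H2-DMb1: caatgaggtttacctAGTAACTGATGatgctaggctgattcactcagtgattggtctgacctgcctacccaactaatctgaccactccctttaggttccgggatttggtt

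Tap1 and Psmb9 are transcribed away from each other in RefSeq, with 225 bases between their start sites (chr17:34187331-34187555, given on the plus strand, the strand of Tap1). Capitals mark the Y box, here in its reverse form near the Psmb9 start site. The ISRE core and the GAS core TTCNNNGAA, an element of interferon gamma responses and present in 8.3% of all windows, had no match in these letters, which says nothing about the binding of any factor.
Tap1: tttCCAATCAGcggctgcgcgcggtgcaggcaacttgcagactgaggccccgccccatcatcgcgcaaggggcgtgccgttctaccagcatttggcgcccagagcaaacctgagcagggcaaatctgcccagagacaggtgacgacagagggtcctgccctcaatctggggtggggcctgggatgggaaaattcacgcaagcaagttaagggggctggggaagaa

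Treated and solvent skin were compared gene by gene. Most interferon-stimulated genes were scarcely detected in either group, and class I genes were well detected. Levels overlapped between groups for 6 of 9 class I genes, where 47.9% of all tested genes did not overlap. Within class II, the classical chains with Cd74 and the peptide-exchange genes had log2 fold changes of opposite sign. No single member passed the threshold. Of the 40 members 24 had enough reads to be tested, 8 interferon-stimulated, 7 class II and 9 class I. With the edgeR quasi-likelihood test and p adjusted by Benjamini-Hochberg over all 11388 genes tested, 0 of 24 passed an adjusted p of 0.05, where 0.782% of all tested genes did (0.667% higher and 0.114% lower). DESeq2 and limma-voom also called 0 of 24. At an unadjusted p under 0.05 there were 4 members in edgeR, 3 in DESeq2 and 4 in limma-voom, and in edgeR 16.5% of all tested genes were below it. The 4 were Ifi27l2a and Cd74 with higher values with NEDD8i, against 8.62% of all tested genes, and H2-DMa and Tap1 with lower values, against 7.87%. Both NEDD8i libraries lay above both DMSO libraries for 5 members, against 25.0% of all tested genes, and below them for 4, against 22.9%. The smallest log2 fold change among all genes that passed in this edgeR fit was 1.67 in size. Without DMSO replicate 1, 2 members passed, Tap1 (log2 fold change -1.75, edgeR adjusted p = 1.21e-05) and H2-Eb1 (1.11, edgeR adjusted p = 0.038). These 2 of 24 stand beside 9.67% of all tested genes called in that fit, a share near that of the members. There the lone DMSO library is assumed to vary like the NEDD8i group.

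**Figure D1:**
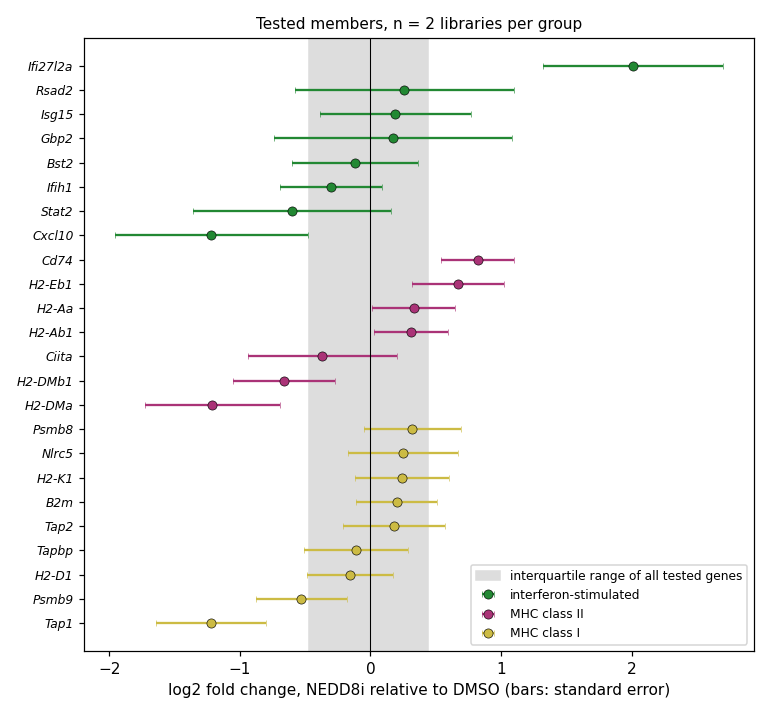
Log2 fold change (NEDD8i relative to DMSO, horizontal axis) of the 24 tested members, coloured by group of genes, with the standard error as bars and the interquartile range of all tested genes shaded. Ifi27l2a at 2.01 stands farthest to the right, and Tap1, Cxcl10 and H2-DMa stand farthest to the left at -1.22, -1.22 and -1.21, all with adjusted p above 0.05.

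Among interferon ligands, reads were all but absent. Of 21 genes for type I, type II and type III interferons, 20 had 0 counts in all 4 libraries. The other one, Ifnk, which encodes interferon kappa of keratinocytes, had 0 counts in 3 libraries and 7 in NEDD8i replicate 2. In DMSO replicate 2, where the floor is highest, a count of 0 leaves room for 0.541 CPM, so low ligand levels were not detectable at this depth.

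Antiviral effector genes were low as well. Among interferon-stimulated members 16 had too few reads to be tested, and none of them exceeded 10 counts in any library. Ifit1, which binds foreign RNA ends, counted 3 and 0 reads in DMSO and 7 and 2 with NEDD8i. Ifit2 had 6 and 1 against 5 and 0, and Ifit3 had 2 and 1 against 0 and 3. Groups overlapped for all 3 genes, and Ifit3b, a close copy of Ifit3 with which it may share reads, had 2 counts in NEDD8i replicate 1 and 0 elsewhere. The GTPase gene Mx1 had 1 count in all, in NEDD8i replicate 1, and Mx2 had 5 and 3 against 7 and 10. Set members of the oligoadenylate synthetase family, whose active enzymes make the messenger that activates RNase L, had at most 9 counts in a library. Oas1c, of this family but outside the set, had 15 and 26 counts in DMSO and 12 and 12 with NEDD8i. Its levels did not overlap (log2 fold change -1.20 with SE 0.66, edgeR adjusted p = 0.414). Oas1a had 0 and 4 counts in DMSO and 0 and 0 with NEDD8i, and Oas3 had 2 and 0 against 0 and 0. Oas2 had 0 and 0 against 4 and 7, Oasl1 had 0 and 0 against 2 and 9, and Oasl2 had 0 and 2 against 1 and 4. Usp18, which removes Isg15 from proteins, had 1 and 0 counts in DMSO and 9 and 4 with NEDD8i. Gbp3, a guanylate-binding GTPase, had 0 and 3 against 8 and 7. The interferon regulatory factor Irf7 had 7 and 4 against 8 and 3. Ifi44 had 1 count in all, in DMSO replicate 2. Xaf1, which binds the apoptosis inhibitor XIAP, had 2 and 2 counts in DMSO and 0 and 0 with NEDD8i. Together the 16 untested members had 28 and 21 counts in DMSO and 54 and 49 with NEDD8i. In CPM, DMSO had 3.99 (exact 95% Poisson interval 2.65 to 5.76) and 3.79 (2.35 to 5.79). NEDD8i had 6.68 (5.02 to 8.72) and 5.87 (4.34 to 7.75), so both NEDD8i sums lay above both DMSO sums. The intervals cover counting error only. They overlap between groups, which is not a test of a difference, and the sums were not tested.

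**Figure D2:**
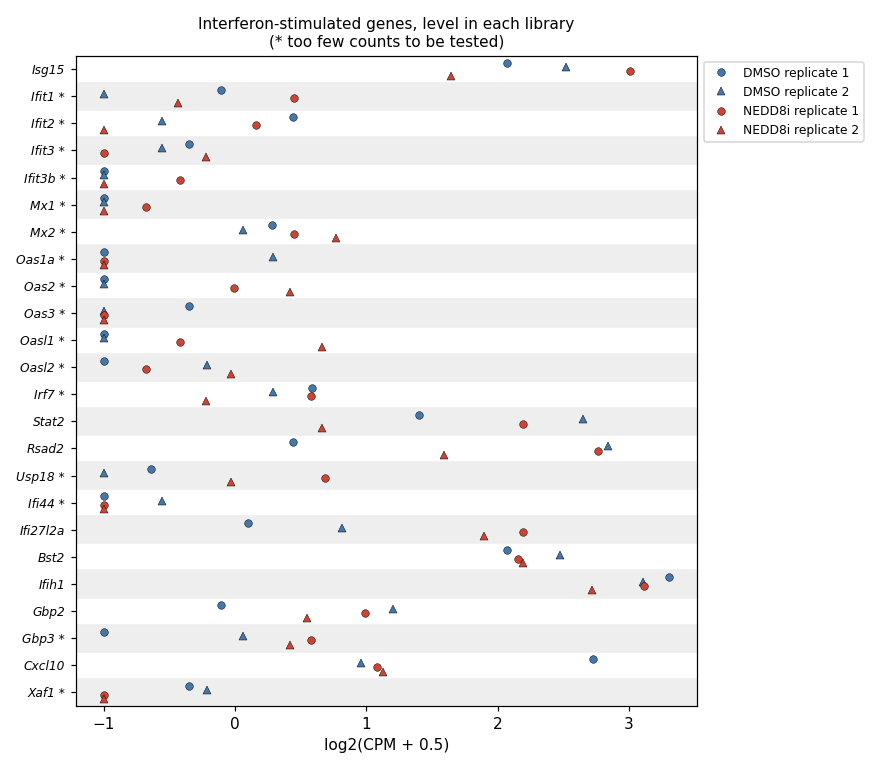
Level of the 24 interferon-stimulated genes in each of the 4 libraries, as log2 of CPM plus 0.5 (horizontal axis), with an asterisk on the 16 genes too low to be tested. Points at -1 have 0 counts. Most points lie below 1 CPM, and blue (DMSO) and red (NEDD8i) points overlap for 7 of the 8 tested genes, Ifi27l2a being the exception.

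Of the 8 tested interferon-stimulated genes, 4 lay above 0 and 4 below 0 in log2 fold change. Groups did not overlap for 47.9% of all tested genes and for 1 of these 8. This was Ifi27l2a (ENSMUSG00000079017.4, chromosome 12, 103408426 to 103409939, coordinates as deposited and taken to be GRCm39), a small interferon-induced membrane protein gene. Its counts were 4 and 7 in DMSO and 33 and 27 with NEDD8i, or 0.57 and 1.26 against 4.08 and 3.23 CPM. The log2 fold change of 2.01 (SE of 0.69, unadjusted p = 0.0174) did not pass (edgeR adjusted p = 0.196). It passed the filter on low counts through its NEDD8i libraries alone, so it could be tested only because it was higher there. The chemokine gene Cxcl10 had 6.12 and 1.44 CPM in DMSO and 1.61 and 1.68 CPM with NEDD8i, so its log2 fold change of -1.22 (SE of 0.74, edgeR adjusted p = 0.465) rests on DMSO replicate 1, and without that library it was 0.17. Cxcl10 lies within the span of Art3 on the opposite strand, which had 27 counts in all, and it is not stated whether counting used strand.

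Isg15 (ENSMUSG00000035692.8, chromosome 4, 156283912 to 156285253) encodes a ubiquitin-like protein, as Nedd8 does. It counted 26 and 29 reads in DMSO and 61 and 22 with NEDD8i, or 3.70 and 5.23 against 7.55 and 2.63 CPM. The NEDD8i libraries held both its highest and its lowest level, and the log2 fold change was 0.19 (SE of 0.58, edgeR adjusted p = 0.909). The double-stranded RNA sensor gene Ifih1 was at 9.40 and 8.12 CPM in DMSO and 8.17 and 6.10 CPM with NEDD8i (log2 fold change -0.30 with SE 0.39, edgeR adjusted p = 0.769). Bst2, which encodes tetherin, was at 3.70 and 5.05 against 3.96 and 4.07 CPM (-0.12 with SE 0.48, edgeR adjusted p = 0.93). The groups overlapped for both genes. The signalling factor Stat2 had 2.14 and 5.77 CPM in DMSO and 4.08 and 1.08 CPM with NEDD8i (-0.60 with SE 0.76, edgeR adjusted p = 0.755). Rsad2, which encodes viperin, had 6 and 37 counts against 51 and 21, and Gbp2 had 3 and 10 against 12 and 8, both overlapping. The median log2 fold change of the 8 tested genes was 0.03, beside 0.00 over all genes tested, and leaving out a library took it from -0.54 without NEDD8i replicate 1 to 0.36 without DMSO replicate 2.

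Class II genes had log2 fold changes of both signs. The genes of the classical chains, H2-Aa (alpha chain of I-A), H2-Ab1 (beta chain of I-A) and H2-Eb1 (beta chain of I-E), and the invariant chain Cd74 had positive log2 fold changes. H2-DMa and H2-DMb1, which encode the H2-DM molecule that exchanges peptides on class II, and the activator Ciita had negative ones. None of the 7 passed (smallest edgeR adjusted p = 0.196), and without DMSO replicate 1 only H2-Eb1 did. The median log2 fold change of the 7 was 0.31, beside 0.00 over all genes tested, and ran from 0.10 without NEDD8i replicate 1 to 0.47 without DMSO replicate 1.

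Cd74 (ENSMUSG00000024610.16, chromosome 18, 60936920 to 60945724) counted 316 and 295 reads in DMSO and 654 and 773 with NEDD8i. Its level was 49.1 ± 5.82 CPM in DMSO and 86.7 ± 8.21 CPM with NEDD8i (mean ± SD, n = 2 libraries each). Both NEDD8i libraries were above both DMSO libraries, and the log2 fold change was 0.82 (SE of 0.28, unadjusted p = 0.0172, edgeR adjusted p = 0.196). H2-Eb1 (ENSMUSG00000060586.12, chromosome 17, 34524841 to 34535648) was at 33.6 and 19.3 CPM in DMSO and 48.7 and 35.5 CPM with NEDD8i, with a log2 fold change of 0.67 (SE of 0.35, edgeR adjusted p = 0.393). DMSO replicate 2 was the lowest, and DMSO replicate 1 was just under NEDD8i replicate 2. H2-Ab1 was at 62.7 and 50.2 against 67.2 and 73.0 CPM (0.31 with SE 0.28, edgeR adjusted p = 0.641), without overlap. H2-Aa was at 27.6 and 20.0 against 34.4 and 25.5 CPM (0.33 with SE 0.32, edgeR adjusted p = 0.674), with overlap. The changes of H2-Ab1 and H2-Aa lay within the interquartile range of all tested genes (-0.47 to 0.44). With library sizes without TMM they were 0.08 and 0.09, and the median of all tested genes was -0.22, beside 0 in the main fit.

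H2-DMa (ENSMUSG00000037649.11, chromosome 17, 34341806 to 34358075) counted 48 and 40 reads in DMSO and 15 and 35 with NEDD8i. At 6.84 and 7.22 CPM in DMSO and 1.86 and 4.19 CPM with NEDD8i its groups did not overlap, and the log2 fold change was -1.21 (SE of 0.52, unadjusted p = 0.0456, edgeR adjusted p = 0.292). H2-DMb1 was at 11.3 and 15.3 CPM in DMSO and 6.56 and 10.2 CPM with NEDD8i (-0.66 with SE 0.39, edgeR adjusted p = 0.454). Its neighbour H2-DMb2, a close copy that may share reads with it, was at 6.84 and 8.66 against 3.22 and 5.03 CPM (-0.90 with SE 0.45, edgeR adjusted p = 0.368). All 3 H2-DM genes lay lower in both NEDD8i libraries, as did 22.9% of all tested genes, and none passed the test. H2-DMb2 is outside the set, and if it shares reads with H2-DMb1 the 2 are not separate observations. Ciita had 24 and 17 counts in DMSO and 25 and 16 with NEDD8i, which at 3.42 and 3.07 against 3.09 and 1.92 CPM overlap (-0.37 with SE 0.57, edgeR adjusted p = 0.806). Ciita shares 25888 bases with Dexi on the opposite strand, which had 366 counts in all.

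Ratios of counts inside a library do not depend on how libraries are scaled. A family of 11 such ratios was computed, chosen after the single genes had been seen. With 2 libraries against 2, a two-sided exact permutation test cannot give a p below 0.333, so none can pass. For each 100 reads of H2-Aa, H2-Ab1 and H2-Eb1 there were 20.1 and 34.9 reads of the 3 H2-DM genes in DMSO and 7.74 and 14.5 with NEDD8i, a difference of -1.32 on the log2 scale (exact p = 0.333). The groups did not overlap, and the 2 DMSO libraries differed from each other by more than the nearest pair across groups did. Cd74 per 100 reads of the same 3 genes was 36.3 and 59.5 in DMSO and 53.8 and 69.0 with NEDD8i, with overlap (exact p = 0.667).

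The Langerhans cell gene Cd207, which encodes langerin, also lay higher in both NEDD8i libraries. Its counts were 119 and 25 in DMSO and 310 and 217 with NEDD8i, or 16.9 and 4.51 against 38.4 and 26.0 CPM, a log2 fold change of 1.57 (SE of 0.55, edgeR adjusted p = 0.21). DMSO replicate 2, the lowest for Cd207, was also the lowest for H2-Aa, H2-Ab1 and H2-Eb1. Per 100 reads of these 3 genes there were 13.7 and 5.04 Cd207 reads in DMSO and 25.5 and 19.4 with NEDD8i (exact p = 0.333). The list of 9 Langerhans and dendritic cell genes summed to 21.9 and 11.2 CPM in DMSO and 43.9 and 32.7 CPM with NEDD8i, most of it Cd207 except in DMSO replicate 2. Only Cd207 and Itgax had enough reads to be tested. Itgax, which encodes CD11c, was at 4.27 and 5.05 against 4.08 and 4.19 CPM. Among the untested genes, Ccr7 had 0 and 0 counts in DMSO and 2 and 8 with NEDD8i, and Clec10a had 0 and 0 against 5 and 6. Zbtb46 had 2 and 2 against 0 and 1, Flt3 had 2 and 0 against 1 and 0, and Batf3 had 1 and 6 against 4 and 6. Cd209a had 0 and 1 against 0 and 0, and Xcr1 had 0 counts throughout. The 10 macrophage and monocyte genes summed to 26.2 and 18.0 against 43.7 and 30.8 CPM, and 5 of the 10 could be tested, with 0 past the threshold. Of these 5, 4 lay higher in both NEDD8i libraries, where 25.0% of all tested genes did, and 1 overlapped. C1qc, among the 4, had 7 and 5 counts against 13 and 14. It passed the filter on low counts through its NEDD8i libraries alone, so it could be tested only because it was higher there. Of the untested genes, Adgre1 had 32 and 2 counts against 10 and 2, and Ly6c2 had 0 and 0 against 2 and 0. C1qb had 0 and 1 against 12 and 7, and Lyz2 had 6 and 6 against 12 and 11. The most abundant of the 5 tested genes were C1qa and Csf1r. C1qa, a complement subunit gene, was at 4.98 and 5.41 against 15.5 and 11.8 CPM, without overlap. Csf1r, a growth factor receptor gene, was at 11 and 5.77 against 6.56 and 7.90 CPM, with overlap. Cd14 added 8.29 CPM to the sum of NEDD8i replicate 1 and 0.598 CPM or less to the others. The B cell genes Cd79a, Cd79b and Ms4a1 had 0 counts. The part of these cells in the class II levels was not tested.

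**Figure D3:**
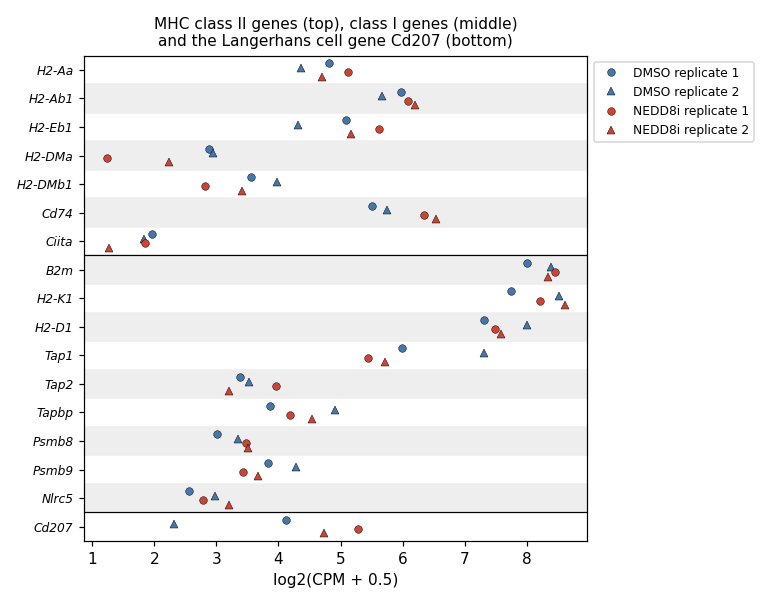
Level of the 7 class II genes (top), the 9 class I genes (middle) and Cd207 (bottom) in each library, as log2 of CPM plus 0.5 (horizontal axis). Red (NEDD8i) points lie to the right of both blue (DMSO) points for H2-Ab1, H2-Eb1, Cd74, Psmb8 and Cd207, and to the left for H2-DMa, H2-DMb1, Tap1 and Psmb9.

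Class I heavy and light chains were abundant in both groups. B2m, the light chain beta-2-microglobulin (ENSMUSG00000060802.9, chromosome 2, 121978167 to 121983564), counted 1790 and 1851 reads in DMSO and 2837 and 2711 with NEDD8i, a log2 fold change of 0.20 (SE of 0.31, edgeR adjusted p = 0.809). The heavy chain genes are close copies of each other and may share reads. H2-K1 had 1511 and 2023 counts against 2383 and 3255 (0.24 with SE 0.36, edgeR adjusted p = 0.8). H2-D1 had 1115 and 1421 against 1453 and 1598 (-0.16 with SE 0.33, edgeR adjusted p = 0.86). Levels of all 3 genes overlapped between groups once scaled to library size.

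Tap1 was the class I gene with the largest difference. It encodes a subunit of the peptide transporter (ENSMUSG00000037321.18, chromosome 17, 34406527 to 34416199) and counted 443 and 879 reads in DMSO and 348 and 436 with NEDD8i. Its level was 63.1 and 159 CPM in DMSO and 43.1 and 52.2 CPM with NEDD8i, so DMSO replicate 2 stood far above the rest and DMSO replicate 1 only a little above the NEDD8i libraries. The log2 fold change was -1.22 (SE of 0.42, unadjusted p = 0.0187, edgeR adjusted p = 0.202). It was -0.41 without DMSO replicate 2 (edgeR adjusted p = 0.478) and -1.75 without DMSO replicate 1, where it passed (edgeR adjusted p = 1.21e-05). It also passed when genes with low counts were kept in the test (-1.18, edgeR adjusted p = 0.0239), where 2.97% of all genes passed. The sum of the keratinocyte genes was likewise highest in DMSO replicate 2, at 10092 CPM against 4693 to 6833 in the other libraries. Krt14 alone was highest elsewhere, at 2549 CPM in NEDD8i replicate 1 against 2305 CPM in DMSO replicate 2. The part of the keratinocyte genes in the Tap1 level was not tested.

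Psmb9, an immunoproteasome subunit gene that shares its promoter region with Tap1, was at 13.7 and 18.9 CPM in DMSO and 10.3 and 12.3 CPM with NEDD8i (log2 fold change -0.53 with SE 0.35, edgeR adjusted p = 0.516). Its groups did not overlap, and DMSO replicate 2 was the highest library for it as for Tap1. In the deposited annotation the genes overlap by 212 bases on opposite strands at their starts, far from the 3′ ends where tags are read. The other subunit, Psmb8, was at 7.55 and 9.74 CPM in DMSO and 10.6 and 10.9 CPM with NEDD8i (0.32 with SE 0.37, edgeR adjusted p = 0.727), also without overlap but in the other direction. Tap2, the partner of Tap1, was at 9.97 and 11 against 15 and 8.74 CPM (0.18 with SE 0.39, edgeR adjusted p = 0.871). Tapbp, which encodes tapasin, was at 14.1 and 29.6 against 17.7 and 22.7 CPM, and Nlrc5, the activator of class I genes, at 5.41 and 7.40 against 6.43 and 8.74 CPM. Both overlapped between groups. The median log2 fold change of the 9 class I genes was 0.18, beside 0.00 over all genes tested, and went to -0.11 without DMSO replicate 1.

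Within a library there were 24.7 and 47.5 Tap1 reads per 100 B2m reads in DMSO and 12.3 and 16.1 with NEDD8i, a difference of -1.29 on the log2 scale (exact p = 0.333). Psmb9 per 100 B2m reads was 5.36 and 5.67 in DMSO, where the libraries nearly coincided, and 2.93 and 3.80 with NEDD8i (-0.73, exact p = 0.333). Tap1 per 100 Tap2 reads was 633 and 1441 against 288 and 597 (-1.20, exact p = 0.333), so NEDD8i replicate 2 came close to DMSO replicate 1. Immunoproteasome subunits stand in for constitutive ones, and Psmb8 per 100 reads of its counterpart Psmb5 was 27.9 and 50.5 in DMSO and 33.2 and 49.2 with NEDD8i (exact p = 1). Psmb9 per 100 Psmb6 was 12.8 and 28.1 against 7.35 and 13.6, and Psmb10 per 100 Psmb7 was 13.4 and 41.6 against 25.8 and 18.1. Groups overlapped in all 3 of these exchange ratios.

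**Figure D4:**
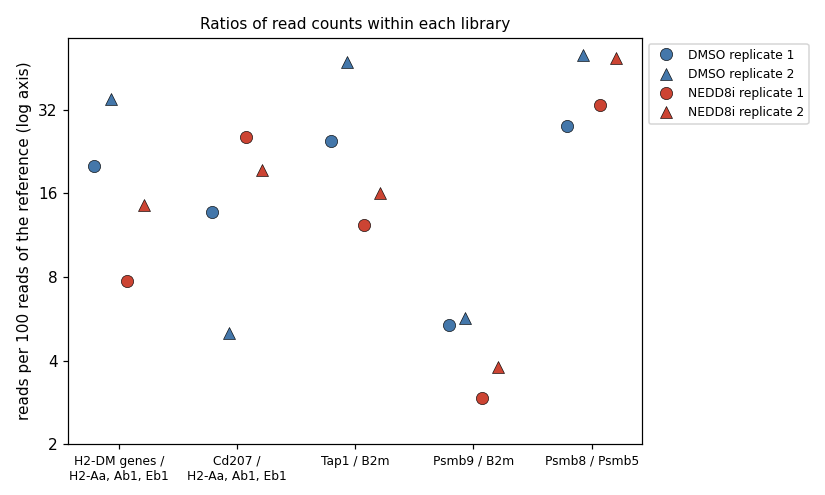
Reads per 100 reads of a reference gene or group in each library (vertical log axis) for 5 ratios. Red (NEDD8i) points lie below both blue (DMSO) points for the H2-DM genes against the class II chains, Tap1 against B2m and Psmb9 against B2m, and above them for Cd207 against the class II chains, while Psmb8 against Psmb5 overlaps.

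The rest of the pathway was read from lists of 166 further genes, of which 90 were tested. In edgeR 0 of these 90 passed, with 12 at an unadjusted p under 0.05 (9 higher and 3 lower), where 16.5% of all tested genes were below it. In limma-voom 0 passed and in DESeq2 2 did, Trex1 and Myd88, where DESeq2 called 3.64% of all genes. Their median log2 fold change was 0.18, beside 0.00 over all genes tested. Without DMSO replicate 1, 5 passed (Trex1, Myd88, Slfn2, Psme3 and Parp14), and without DMSO replicate 2, 8 did (Trex1, Myd88, Slfn5, Jak1, Jak2, Samhd1, Cd274 and H2-T23). In these fits 9.67% and 7.57% of all tested genes passed, so 5 and 8 of 90 are near or under the background. Without either NEDD8i replicate 0 passed. With no filter on low counts 6 did (Trex1, Myd88, Slfn5, Slfn2, Jak2 and Cd274) of 133 then tested, beside 2.97% of all genes. Those named below besides the 2 most abundant of a list were chosen after their values were seen.

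Among receptors, kinases and factors 0 of 17 tested genes passed, and the parts of the interferon receptor pathway did not lie on one side. Jak1 was at 108 and 205 CPM in DMSO and 232 and 245 CPM with NEDD8i (log2 fold change 0.61 with SE 0.36, edgeR adjusted p = 0.455). Jak2, the kinase of the interferon gamma receptor, was at 6.98 and 9.92 against 20.2 and 21.2 CPM (1.29 with SE 0.35, edgeR adjusted p = 0.128). Irf1, an interferon regulatory factor that activates antigen presentation genes, was at 65.7 and 69.7 CPM in DMSO and 24.3 and 47.2 CPM with NEDD8i (-0.92 with SE 0.35, edgeR adjusted p = 0.24). Irf9 was at 17.8 and 28.5 against 19.9 and 17.4 CPM, with overlap. Of the 17 tested genes, 2 lay higher in both NEDD8i libraries, Jak1 and Jak2, beside 25.0% of all tested genes. There were 3 that lay lower in both, Irf1 among them, beside 22.9% of all tested genes, and none of these passed.

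Among nucleic acid sensing genes the 2 most abundant had the smallest p-values of the list. Trex1, a DNA exonuclease that clears cytosolic DNA, counted 13 and 41 reads in DMSO and 209 and 274 with NEDD8i, or 1.85 and 7.40 against 25.9 and 32.8 CPM. Its log2 fold change of 2.69 (SE 0.56) narrowly missed the threshold (edgeR adjusted p = 0.0693). Myd88, the adaptor of Toll-like and interleukin-1 receptors, was at 24.5 and 27.4 against 52.3 and 65.5 CPM (1.18 with SE 0.29, edgeR adjusted p = 0.0994). Both genes passed without DMSO replicate 1 and without DMSO replicate 2, and neither passed without either NEDD8i replicate. The cytosolic DNA sensor Cgas was at 5.41 and 9.56 against 12.0 and 12.1 CPM (0.69 with SE 0.41, edgeR adjusted p = 0.447).

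In the list of other interferon-induced genes 24 of 59 were tested, 15 above and 9 below 0 in log2 fold change. The 2 most abundant were Samhd1, a nucleotide hydrolase, and Parp9, a partner of Dtx3l. Samhd1 was at 9.97 and 27.2 CPM in DMSO and 35.8 and 26.6 CPM with NEDD8i, and Parp9 at 8.54 and 19.1 against 11.9 and 15.2 CPM, both with overlap. The 3 of 24 genes with an unadjusted edgeR p under 0.05 were all higher, where 8.62% of all tested genes were higher at that p. The Schlafen gene Slfn5 had counts of 4 and 8 against 45 and 50 (log2 fold change 2.54 with SE 0.63, edgeR adjusted p = 0.103), and Slfn2 had 17 and 4 against 65 and 58 (2.20 with SE 0.60, edgeR adjusted p = 0.129). Cd274, which encodes the checkpoint ligand PD-L1, had 4 and 7 against 51 and 27 (2.39 with SE 0.70, edgeR adjusted p = 0.145). None of the 3 had overlapping groups. Of the 24 tested genes, 7 lay higher in both NEDD8i libraries, beside 25.0% of all tested genes, and 3 lay lower, beside 22.9%. Cd274 passed the filter on low counts through its NEDD8i libraries alone, so it could be tested only because it was higher there.

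Other class I and class II pathway genes gave 0 of 18 and 0 of 15 tested past the threshold. The chaperone genes Calr and Pdia3 were at 456 and 483 against 472 and 401 CPM and at 206 and 360 against 240 and 237 CPM. The lysosomal proteases Ctsb and Ctsl were at 64.1 and 44.9 against 63.8 and 74.3 CPM and at 77.2 and 23.1 against 35.5 and 48.2 CPM. All 4 overlapped between groups. The costimulatory ligand gene Cd86 counted 19 and 13 reads in DMSO and 58 and 68 with NEDD8i (log2 fold change 1.59 with SE 0.46, edgeR adjusted p = 0.141). The nonclassical class I gene H2-T23 was at 11.5 and 6.68 against 4.45 and 3.47 CPM (-1.20 with SE 0.45, edgeR adjusted p = 0.234).

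**Figure D5:**
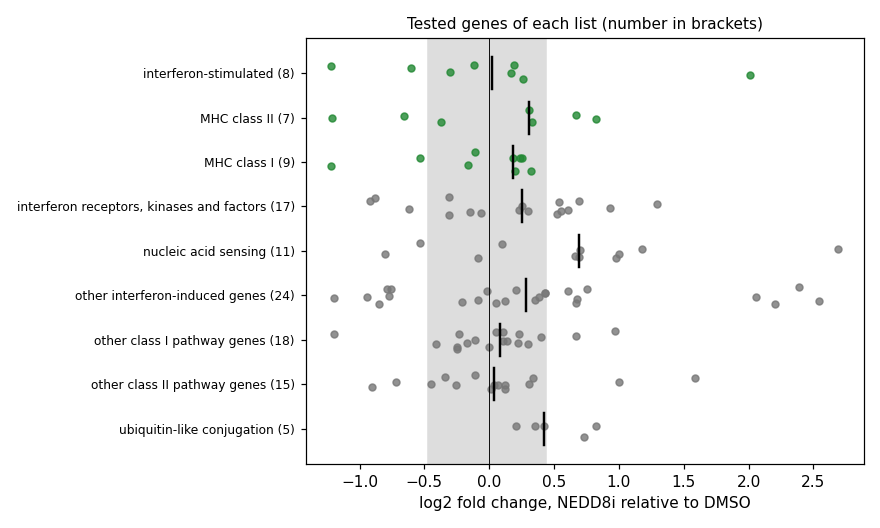
Log2 fold change (NEDD8i relative to DMSO, horizontal axis) of every tested gene in the 3 groups of members (green) and in 6 lists of related genes (grey), with a black line at each median and the interquartile range of all tested genes shaded. Nucleic acid sensing has the farthest median at 0.69, Trex1 at 2.69 being its farthest gene, and none of the points shown passed an adjusted p of 0.05.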

How the data were processed

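RNA of 4 mouse skin libraries was counted per gene. The deposited table holds raw counts of reads, in featureCounts layout per the file headers. STAR, featureCounts and DESeq2 are named, without versions, in the submitters' processing notes, and the libraries were QuantSeq 3′ FWD per the labels' protocols. Whether strand was used, and what was done with reads matching more than one gene, is unknown. The notes name GRCm38 and GRCm39. Only 2.7% of 52029 matched genes start where GENCODE M21 on GRCm38 puts them, so deposited coordinates are taken to be GRCm39. Promoters are RefSeq sequences on GRCm38.p6. No 2 libraries were duplicates: chi-square over its degrees of freedom was 24.1 to 68.5.

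Counts were tested in R 4.3.3 with edgeR 4.0.16: TMM, filterByExpr (minimum count 10, minimum total 15), robust quasi-likelihood F test, group as the only term, Benjamini-Hochberg adjustment. The standard error is the absolute log2 fold change over the square root of F. CPM uses TMM-scaled library sizes. Alternatives used DESeq2 1.42.0, limma 3.58.1, other scalings and filters, a replicate block and each library left out. The steps were tested on simulated data. Members and lists were chosen with earlier results of these data known. Full statistics went to the 3 largest changes and the 3 most abundant tested genes of each group of members. Where a related list had no call, its 2 most abundant genes were named. Values of some listed genes are not reported here.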

Additional observations from a re-analysis of the deposited data

How the results depend on the processing

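No member was called in edgeR, DESeq2, limma-voom, with RLE factors, with library sizes without TMM, with the fixed filter, without the robust option, without ribosomal RNA genes or with either replicate block. With no filter 1 member was called, Tap1, and with each library left out in turn 0 to 2 were. The count over all genes, 89, was 414 in DESeq2, 27 in limma-voom, 47 with library sizes without TMM, 703 with no filter, 48 without the robust option and 31 to 1101 with a library left out. With the replicate number as a block it was 289. Deviations of same-numbered libraries from their group means were only weakly related (r = -0.13 across 11388 genes). A crossed block, added after seeing the data, called 493. The labels give no shared source for a number, so neither block stands for a pairing. Without TMM the median of all genes went to -0.22. In that fit the class II median went to 0.08, the class I median from 0.18 to -0.04 and the interferon-stimulated median from 0.03 to -0.17, and Isg15 to -0.02, Gbp2 to 0.00, B2m to 0.00 and Tap2 to -0.04. These fits differ in the scaling of the libraries alone, and the cause was not tested further. Leaving out a library, the median ran from -0.54 to 0.36 for interferon-stimulated, 0.10 to 0.47 for class II and -0.11 to 0.41 for class I members. Members whose sign turned ran from -0.75 to 0.72 (Isg15), -1.85 to 0.27 (Stat2), -0.62 to 2.34 (Rsad2), -0.35 to 0.12 (Bst2), -0.58 to 1.48 (Gbp2), -1.89 to 0.17 (Cxcl10), -0.11 to 0.67 (H2-K1), -0.48 to 0.22 (H2-D1), -0.26 to 0.48 (Tap2), -0.56 to 0.52 (Tapbp) and -0.03 to 0.49 (Nlrc5). With 10 counts or fewer, the 16 untested members allow no statement on direction, and their summed counts were not tested.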

Other observations

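Isg15 and Nedd8 are both attached to proteins by their own enzymes, and the transcripts of these enzymes differed widely in depth. For Isg15, the activating enzyme gene Uba7 counted 2 and 0 reads in DMSO and 0 and 1 with NEDD8i, the conjugating enzyme gene Ube2l6 had 5 and 8 against 5 and 5, and the ligase gene Herc6 had 0 and 0 against 3 and 4. None of the 3 had enough reads to be tested. Nedd8 itself had 920 and 575 counts in DMSO and 1221 and 1004 with NEDD8i (log2 fold change 0.21 with SE 0.30, edgeR adjusted p = 0.792). Of its activating enzyme, the subunit gene Nae1 was at 25.3 and 30.1 against 44.9 and 46.9 CPM (0.73 with SE 0.28, edgeR adjusted p = 0.244) and the subunit gene Uba3 at 18.2 and 19.7 against 27.3 and 23.2 CPM (0.42 with SE 0.30, edgeR adjusted p = 0.55). Both subunits were higher in both NEDD8i libraries, as were 25.0% of all tested genes, without passing. The conjugating enzyme gene Ube2m was at 8.40 and 16.2 against 16.7 and 14.5 CPM, with overlap. The other conjugating enzyme gene, Ube2f, was at 11.3 and 5.59 against 17.8 and 12.1 CPM (0.82 with SE 0.43, edgeR adjusted p = 0.4), without overlap.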
